A study of Mus musculus with 21 samples.

Results

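Mouse embryonic fibroblasts that had carried Spib, Irf8 and Ikzf2 for 3 days (set SII) were described here as 3400 cells of 25991 in the series. The members were every cell in the Clec9a-line library (2081 cells) and the hCD2-line library (1319 cells) of this set at day 3. They were chosen by library and not by any measured value. Spib encodes an ETS family factor closely related to PU.1, Irf8 an interferon regulatory factor used across dendritic cell (DC) development, and Ikzf2 the Ikaros family zinc-finger protein Helios, best known from regulatory T cells. Splenic plasmacytoid DCs (pDCs), the natural cells set beside this combination, are blood-derived cells known for making large amounts of type I interferon. Fibroblasts are defined by collagen and matrix genes, and leukocytes by Ptprc, which encodes the surface phosphatase CD45.

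The series measured single-cell RNA by droplet capture with unique molecular identifiers (UMIs), which mark each captured transcript once. The 2 SII libraries came from fibroblasts transduced with lentivirus and kept on gelatin-coated plates in DMEM with 10% FBS. One was sorted as live tdTomato-positive cells of the genotype Clec9aCre/Cre Rosa26stopflox-tdTomato/tdTomato, and the other as live YFP-positive cells of the genotype hCD2Cre/WT Rosa26stopflow-YFP/WT. Both sorts keep cells in which a Cre allele has acted on the Rosa26 reporter, so each library holds reporter-positive cells only. The other day 3 libraries, 6 in number with 5205 cells, held PI8 (Spi1 and Irf8), PIB (PI8 with Batf3), PI4 (Spi1 and Irf4) and PIP (PI4 with Prdm1) in the Clec9a line. They also held SI8 (Spib and Irf8) in both lines, each sorted for its line's reporter. The 2 MEF libraries (3773 cells) were wildtype fibroblasts sorted as live, and the pDC library (4169 cells) was sorted from wildtype spleen as CD11c+SiglecH+B220+BST2+ cells. Levels are given as CPM, the UMIs of a gene scaled to a common library total. The SII totals were 89394715 UMIs in the Clec9a line and 72530171 UMIs in the hCD2 line, with medians of 39646 and 53062 UMIs per cell, against 18100 and 25927.5 UMIs per cell in MEF. No source says that libraries of a group came from separate animals or cultures, so p-values measure the spread between libraries, which may be technical.

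Every SII cell had at least 1 UMI of Ikzf2, 2081 of 2081 cells in the Clec9a line and 1319 of 1319 cells in the hCD2 line. Exactly 1 Ikzf2 UMI was present in 481 cells (23.11%) and in 194 cells (14.71%). Both other delivered factors fell short of this. Spib was seen in 53.53% and 75.74% of the cells and Irf8 in 84.38% and 89.16%. All 3 factors were seen together in 48.53% and 69.83%. At day 9 of the same set, Ikzf2 was seen in 55.05% and 59.11% of cells, and in MEF in 16.48% and 21.18%. In the PIB day 3 library, Spi1 was seen in 707 of 707 cells, with exactly 1 UMI in 51.77%. No filter of cells on a gene is given in the sources used here, and whether one shaped the SII or PIB libraries was not tested. All SII values that follow carry this limit, those of Ikzf2 most directly. Reads near the 3' end do not separate delivered from endogenous copies of the 3 factors.

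All 4 genes proposed as markers of these cells were far above their level in MEF and in the other day 3 sets. Ikzf2 stood at 91.1 CPM in the Clec9a line and 105 CPM in the hCD2 line, against 10.1 and 9.71 CPM in the MEF libraries, 4.8 to 18.7 CPM with a median of 11 CPM in the other day 3 libraries, and 42.5 CPM in pDC. The SII values lay above every other library named here. The edgeR quasi-likelihood test gave log2 fold change 3.29 ± 0.09, adjusted p = 0.000119 against MEF (± SE here and throughout). It gave log2 fold change 2.90 ± 0.42, adjusted p = 0.00211 against the other sets. Ikzf2 was delivered in SII only among these sets and was seen in every SII cell. Its rise was thus set by the design, and these p-values lend it no weight as a marker. Btbd3, a BTB-domain protein studied in neurons for the shaping of dendrites, reached 623 CPM in the Clec9a line and 554 CPM in the hCD2 line, against 27.9 and 26.4 CPM in MEF, 5.24 to 14.6 CPM with a median of 10.8 CPM in the other sets and 17.1 CPM in pDC. In edgeR it had a log2 fold change 4.42 ± 0.10, adjusted p = 9.36e-05 against MEF and a log2 fold change 5.64 ± 0.33, adjusted p = 0.000123 against the other sets. Igfbp2, a secreted binder of insulin-like growth factors, was at 1510.2 CPM in the Clec9a line and 1332 CPM in the hCD2 line, against 128 and 121 CPM in MEF and 24.1 to 159.9 CPM with a median of 65.2 CPM in the other sets, and had 0 UMIs in pDC. In edgeR it had a log2 fold change 3.50 ± 0.10, adjusted p = 0.00013 against MEF and a log2 fold change 3.92 ± 0.64, adjusted p = 0.00352 against the other sets.

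Of the 4 markers, Ptprc differed most between the lines. It was at 317 CPM in the Clec9a line and 98.4 CPM in the hCD2 line, against 0 UMIs in both MEF libraries and 0.404 to 37.4 CPM with a median of 7.54 CPM in the other sets, and at 682 CPM in pDC. Against MEF this was at least 2873-fold higher, taking the lower SII line over 3 counts in the MEF total (as in every such floor on MEF here), and edgeR's adjusted p was 0.00477. Against the other sets it had a log2 fold change 3.77 ± 1.13, adjusted p = 0.0346, and the lower SII library was still above the highest of them, PIB. The sum of the 4 markers was 2541 and 2090 CPM in SII, against 166 and 157 CPM in MEF and 74.6 to 181 CPM in the other sets. At day 9 of the same set the sum was 434 CPM in the Clec9a line and 292 CPM in the hCD2 line.

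**Figure D1:**
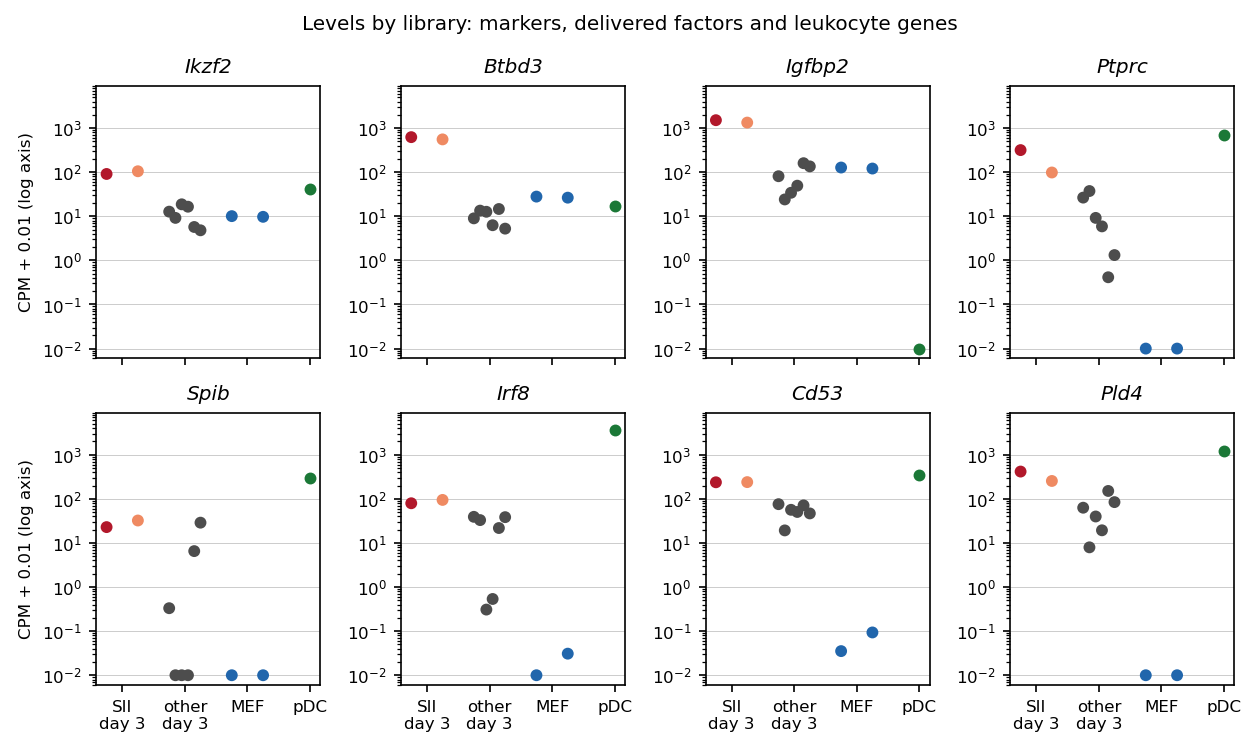
CPM of the 4 proposed markers, of Spib and Irf8, and of the leukocyte genes Cd53 and Pld4, with 1 point per library on a log axis after adding 0.01; groups run from SII day 3 (dark red Clec9a line, orange hCD2 line) through the other day 3 sets (grey, in the order PI8, PIB, PI4, PIP, SI8 Clec9a line, SI8 hCD2 line) and MEF (blue) to pDC (green). Ptprc stood at 317 and 98.4 CPM in SII against 0 in MEF, and Btbd3 at 623 and 554 CPM in SII against at most 14.6 CPM in the other day 3 sets.

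Spib and Irf8 were counted at levels below those of pDC. How fully delivered copies are counted beside the native transcripts of pDC was not tested. Spib was at 22.8 CPM in the Clec9a line and 32.2 CPM in the hCD2 line, against 0 UMIs in MEF and 296 CPM in pDC. Irf8 was at 79.4 CPM in the Clec9a line and 94.5 CPM in the hCD2 line, against 0 and 0.0208 CPM in MEF and 3555 CPM in pDC. Among the other sets Spib was at 6.52 and 28.8 CPM in the SI8 libraries and at most 0.321 CPM in the sets without it. Irf8 ran over 0.298 to 39.1 CPM in the other sets, and neither gene passed the edgeR test against them (adjusted p = 0.412 for Spib and 0.297 for Irf8).

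Against MEF, the cells had gained leukocyte genes and lost fibroblast genes. Of 15348 genes tested in edgeR, 5423 were higher (35.3%) and 5232 lower (34.1%) at an adjusted p under 0.05. With so many calls, a rule of at least 4-fold was added after the counts were seen, which left 1381 higher (9.00%) and 2096 lower (13.7%), and the median log2 fold change over all genes was 0.011. Of 22 tested members of a pan-leukocyte list of 24 genes, 18 were higher and 1 lower (17 and 1 past 4-fold), with a median log2 fold change of 7.65. Of 24 fibroblast and matrix genes, 22 were lower and 1 higher (21 and 0 past 4-fold), with a median of -5.33. Leaving out a MEF library brought the called genes from 10655 in the full comparison to 6230 without replicate 1 and 6120 without replicate 2.

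Other values moved with this comparison. The 3 genes that track RNA quality (Gm42418, AY036118 and Lars2) summed to 3495 and 3554 CPM in SII, against 836 and 764 CPM in MEF. Without them and the mitochondrial genes, 10604 of 10613 called genes kept their call and sign. Of other cell types, epithelial and junction genes summed to 65.3 and 92.8 CPM in SII against 4.42 and 3.92 CPM in MEF, endothelial genes to 3.22 and 3.98 CPM in SII against 30.9 and 31.2 CPM in MEF, and granulocyte and mast genes to 4.23 and 2.36 CPM in SII against 76.9 and 78.4 CPM in MEF. Cd3e, a defining gene of T cells, had 0 UMIs in the SII libraries. MEF came from wildtype embryos without the reporter alleles, so transduction, sorting and origin of the fibroblasts cannot be told apart here.

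The 15 named rises over MEF include receptors and enzymes of myeloid cells. The macrophage and monocyte list as a whole moved both ways, with 6 of 13 tested genes higher and 5 lower than in MEF. Of all tested genes, 35.3% were higher and 34.1% lower. This list summed to 1670 and 1083 CPM in SII, against 7735 and 7839 CPM in MEF. Pld4, an endolysosomal exonuclease abundant in pDCs, was at 415 CPM in the Clec9a line and 254 CPM in the hCD2 line and had 0 UMIs in MEF, at least 7424-fold higher (adjusted p = 0.000808); pDC held 1199 CPM. Clec12a, an inhibitory C-type lectin of myeloid cells, was at 221 CPM in the Clec9a line and 118 CPM in the hCD2 line with 0 UMIs in MEF, at least 3451-fold higher (adjusted p = 0.00139). Gpr65, a proton-sensing receptor, was at 169 CPM in the Clec9a line and 118 CPM in the hCD2 line, at least 3442-fold above the 0 of MEF. These 3 genes were higher in the Clec9a line than in the hCD2 line, and both lines were far from MEF. Lilrb4a, an inhibitory immunoglobulin-like receptor, was nearly equal in the lines, at 151 CPM in the Clec9a line and 150.2 CPM in the hCD2 line, at least 4387-fold above MEF. Pirb, another receptor of this kind, was at 263 CPM in the Clec9a line and 263 CPM in the hCD2 line against 1 UMI in both MEF libraries together, a ratio of 23040 (95% interval 4135 to 909900) that covers counting error. Lilrb4a and Lilr4b, and Pirb and Pira2, are near-identical pairs whose reads the counting could split, so each value is uncertain between the partners.

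Others of the named rises are best known outside the blood. Qrfpr, a neuropeptide receptor, stood at 111 CPM in the Clec9a line and 124 CPM in the hCD2 line. Tmprss11d, an airway serine protease, stood at 77.7 CPM in the Clec9a line and 94.2 CPM in the hCD2 line, and Syt10, a synaptotagmin of neurons, at 56.7 CPM in the Clec9a line and 98.8 CPM in the hCD2 line. Csn2, the milk protein beta-casein, was at 56.1 CPM in the Clec9a line and 62.2 CPM in the hCD2 line. All 4 had 0 UMIs in MEF and in pDC. The floors on their rises over MEF were 3246-fold for Qrfpr, 2270-fold for Tmprss11d, 1657-fold for Syt10 and 1638-fold for Csn2. Also among them, Fgd2 at 68 and 41.7 CPM and Aif1 at 57.9 and 49.8 CPM in SII with 0 UMIs in MEF, belong to antigen-presenting cells. Fgd2 encodes a guanine nucleotide exchange factor and Aif1 a calcium-binding protein of macrophages.

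Pan-leukocyte genes rose unevenly, and some stayed near 0. Cd53, a leukocyte tetraspanin, was at 237 CPM in the Clec9a line and 239 CPM in the hCD2 line, against 0.0252 and 0.0834 CPM in MEF and 341 CPM in pDC (edgeR log2 fold change 11.96 ± 0.23, adjusted p = 8.17e-05). Laptm5, a lysosomal membrane protein of leukocytes, was at 217 and 136 CPM in SII, 0.0757 and 0.0208 CPM in MEF and 1011 CPM in pDC. Coro1a, an actin regulator, reached 159.8 and 118 CPM in SII, against 2.3 and 2.17 CPM in MEF and 995 CPM in pDC. Cd53 was thus within 1.5-fold of pDC in both lines. Tyrobp, the signalling adaptor DAP12, stood at 1.8 and 1.83 CPM in SII against 4576 CPM in pDC, and Cd48, a leukocyte adhesion protein, had 0 UMIs in SII against 162 CPM in pDC. Lsp1, an actin-binding protein that the MEF also held, was the member that fell, to 26.4 and 9.76 CPM against 283 and 268 CPM in MEF (edgeR log2 fold change -3.94 ± 0.55, adjusted p = 0.00432).

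Collagens and secreted matrix proteins were among the deepest falls. Mmp3, a matrix metalloproteinase, was at 0.28 and 0.0965 CPM in SII, against 4257 and 4053 CPM in MEF (log2 fold change -14.38 ± 0.42, adjusted p = 0.00013). Mgp, a matrix calcification inhibitor, was at 2.27 and 1.28 CPM in SII, against 4526 and 4609.8 CPM in MEF (-11.33 on the log2 scale), and Col6a3 at 0.268 and 0.0276 CPM against 295 and 276 CPM in MEF (-10.81). Col1a1, the main fibrillar collagen, was at 39.6 and 36.7 CPM in SII against 5437 and 5409 CPM in MEF (log2 fold change -7.17 ± 0.09, adjusted p = 5.77e-05), with no overlap between the groups. Dcn, the proteoglycan decorin, stood at 8.55 and 9.51 CPM in SII against 1369.9 and 1384 CPM in MEF. Lox, which cross-links collagen, was at 2.81 and 3.14 CPM in SII against 1372 and 1295 CPM in MEF, and the growth factor receptor Pdgfrb at 2.68 and 2.4 CPM against 93 and 87.7 CPM in MEF. The list as a whole still summed to 5509 and 5893 CPM in SII, against 37135 and 36609 CPM in MEF and 130 CPM in pDC. Vim, the intermediate filament vimentin, was the member that rose, at 2801 and 2747 CPM in SII against 1293 and 1350.2 CPM in MEF (log2 fold change 1.05 ± 0.06, adjusted p = 0.000458). Fn1, fibronectin, did not pass the test, at 1127 and 1739 CPM in SII against 973 and 936 CPM in MEF (adjusted p = 0.0702).

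Of the 25 tested mesenchymal transcription factors, 16 were lower and 5 higher (median log2 fold change -1.22). Twist1 was at 105 and 97.7 CPM in SII, against 142 and 145 CPM in MEF (log2 fold change -0.52 ± 0.07, adjusted p = 0.0045). Prrx1 was at 61.7 and 102 CPM in SII, against 256 and 256 CPM in MEF (log2 fold change -1.67 ± 0.24, adjusted p = 0.00486). Among haematopoietic transcription factors, 20 of 31 tested genes were higher and 7 lower (median 1.81). The higher genes include the delivered Spib, Irf8 and Ikzf2, whose rise was set by the design. Id2, an inhibitor of E proteins such as Tcf4, reached 525 and 659.8 CPM in SII, against 9.71 and 9.82 CPM in MEF and 3.86 CPM in pDC (log2 fold change 5.90 ± 0.14, adjusted p = 9.63e-05). Irf5 was at 69.6 and 52.2 CPM in SII, against 0.126 and 0.313 CPM in MEF and 93.9 CPM in pDC. Fli1, an ETS factor of blood and endothelial cells, was at 42.8 and 45.3 CPM in SII, against 1.54 and 1.56 CPM in MEF and 54.8 CPM in pDC (log2 fold change 4.80 ± 0.08, adjusted p = 6.8e-05). Zeb2, a repressor needed for pDCs, was at 320.1 and 281 CPM in SII, against 125 and 119 CPM in MEF and 539 CPM in pDC (log2 fold change 1.28 ± 0.10, adjusted p = 0.000825). Tcf4, the E protein that specifies pDCs, did not pass the test, at 208 and 149.5 CPM in SII against 224 and 216 CPM in MEF (adjusted p = 0.195) and 2059 CPM in pDC. Of 17 tested genes of a pDC identity list, 5 were higher and 7 lower than in MEF (median -1.13). Of all tested genes, 35.3% were higher and 34.1% lower. The pDC identity list summed to 2151 and 1406 CPM in SII, against 3686 and 3724 CPM in MEF. Runx1, which MEF also expressed, fell to 94.4 and 104 CPM against 235 and 219.6 CPM in MEF (log2 fold change -1.22 ± 0.07, adjusted p = 0.000437).

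Within the Ikaros family, 4 of 5 members were higher than in MEF and 1 lower, with the delivered Ikzf2 counted among the higher. Ikzf3 (Aiolos) was at 4.65 and 5.65 CPM in SII with 0 UMIs in MEF, and Ikzf1 (Ikaros) at 1.01 and 1.28 CPM against 1 UMI in MEF and 228 CPM in pDC. Ikzf5 was at 21.5 and 20.9 CPM in SII against 11.6 and 11 CPM in MEF (log2 fold change 0.89 ± 0.08, adjusted p = 0.00113), and Ikzf4 (Eos) fell to 0.145 and 0.262 CPM against 5.9 and 6.23 CPM in MEF (log2 fold change -4.93 ± 0.29, adjusted p = 0.000495). Against the other day 3 sets Ikzf3 was higher (log2 fold change 6.69 ± 0.87, adjusted p = 0.00149) and Ikzf1 lower, with 3.69 to 15.4 CPM in those sets (log2 fold change -3.16 ± 0.59, adjusted p = 0.00579). Ikaros proteins are known to associate with nucleosome remodelling and Polycomb complexes. Of 27 genes of these complexes, 11 were higher and 8 lower than in MEF (median -0.03). Against the other sets 10 were higher and 1 lower (median 0.44). Of all tested genes, 35.3% were higher and 34.1% lower than in MEF, and 17.2% and 15.7% than in the other sets. No difference from the shares against MEF is read, and no link to Ikzf2 was tested. Mta3 was at 74 and 71 CPM in SII, against 20.8 and 21.1 CPM in MEF (log2 fold change 1.77 ± 0.07, adjusted p = 0.000198) and 6.48 to 34 CPM in the other sets (log2 fold change 1.63 ± 0.43, adjusted p = 0.0221). The counts of this list against the other sets moved with single libraries: 2 were higher without the Clec9a-line SII library and 0 without the hCD2-line one.

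Most interferon and chemokine genes were lower than in MEF and also lower than in the other transduced cells. Interferon-response genes numbered 0 higher and 21 lower of 24 tested against MEF (median log2 fold change -4.75). Isg15, a ubiquitin-like protein that is among the most inducible of these genes, was at 93.9 CPM in the Clec9a line and 36.8 CPM in the hCD2 line, against 2379 and 2354 CPM in MEF (log2 fold change -5.19 ± 0.56, adjusted p = 0.00207). Ifitm3, which blocks viral entry, was at 21.6 and 15 CPM in SII, against 4466 and 4445 CPM in MEF (log2 fold change -7.95 ± 0.27, adjusted p = 0.000157). Bst2, which is also a surface marker of mouse pDCs, was at 1171 and 762 CPM in SII, against 2823 and 2865 CPM in MEF and 4992 CPM in pDC (log2 fold change -1.57 ± 0.24, adjusted p = 0.00524). Irf7, a transcription factor of the response, did not pass the test. It was at 321 and 115 CPM against 202 and 212 CPM in MEF (adjusted p = 0.921). Cytokine and chemokine genes were lower in 18 and higher in 4 of 23 tested (median -3.72). Cxcl5, which draws neutrophils, stood at 1.44 and 0.303 CPM in SII against 7478 and 7541 CPM in MEF, and Ccl7, which draws monocytes, at 19.7 and 15.3 CPM against 1400.1 and 1394 CPM in MEF (log2 fold change -6.34 ± 0.18, adjusted p = 0.000128). Il1b ran the other way, at 5.46 and 2.47 CPM in SII with 0 UMIs in MEF.

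Most genes of protein folding stress and of sterol synthesis were lower as well. Of 16 genes of the unfolded protein and integrated stress responses, 14 were lower and 0 higher than in MEF (median -1.27). Hspa5, the main chaperone of the endoplasmic reticulum, was at 333 and 342 CPM in SII, against 1073 and 1083 CPM in MEF (log2 fold change -1.70 ± 0.05, adjusted p = 0.000134). Ddit3, a stress-induced transcription factor, was at 42 and 50.6 CPM against 190.3 and 191 CPM in MEF (log2 fold change -2.07 ± 0.10, adjusted p = 0.000299). Of 15 cholesterol synthesis genes, 12 were lower and 0 higher (median -0.61). Of 16 genes of the insulin-like growth factor axis, 11 were lower and 4 higher (median -0.97), so the rise of Igfbp2 stood among falls of its relatives. Igfbp3 was at 0.638 and 0.993 CPM in SII, against 331 and 324 CPM in MEF, and Igfbp4 at 1.21 and 0.579 CPM against 374 and 387 CPM in MEF. The growth factor Igf2 was at 59.5 and 49.6 CPM against 753 and 704 CPM in MEF (log2 fold change -3.76 ± 0.13, adjusted p = 0.000164).

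**Figure D2:**
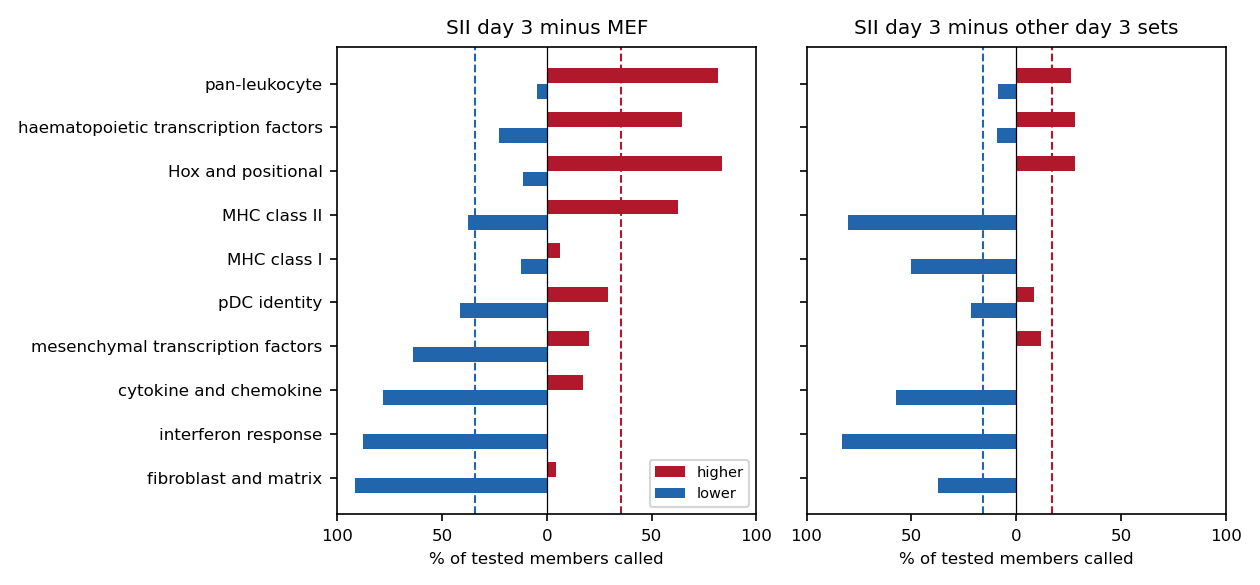
Percent of tested members called higher (red, to the right) or lower (blue, to the left) in SII day 3 for 10 gene lists, against MEF (left panel) and against the other day 3 sets (right panel); dashed lines mark the percent of all tested genes called each way (35.3% and 34.1%, then 17.2% and 15.7%). Fibroblast and interferon genes lie on the lower side in both panels, with 22 of 24 and 21 of 24 members lower than in MEF.

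Hox genes differed between the SII cells and MEF. Hox genes record the position along the body from which a fibroblast comes. Of 18 Hox and other positional genes, 15 were higher and 2 lower than in MEF (median log2 fold change 4.70). Hoxc9 was at 83.1 and 137 CPM in SII, against 0.177 and 0.313 CPM in MEF and 16.1 to 56.4 CPM in the other day 3 sets. Hoxb4 was at 30.1 and 54.1 CPM in SII, against 0.227 and 0.0834 CPM in MEF and 12.4 to 30.2 CPM in the other sets. All 8 transduced day 3 libraries were thus above both MEF libraries for these 2 genes, so the wildtype MEF differed from the transduced fibroblasts in this as a group. Fibroblast origin and transduction cannot be told apart for the comparison with MEF.

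Promoter sequences were searched for short strings of the kinds that the families of the 3 delivered factors bind. Whether these factors caused any change was not tested. RefSeq promoters (GRCm38.p6, 250 bases before to 50 after the start) matched 11455 of the 15348 tested genes. The string GAGGAAGT, an ETS core as bound by PU.1 and Spib, was present on either strand in 78 of 988 promoters of genes at least 4-fold higher than MEF (7.89%), in 39 of 1413 of genes at least 4-fold lower (2.76%), in 3.76% of all tested genes and in 1052 of all 32851 promoters. It was 1 of 8 strings searched, chosen for display after its shares were seen, and no test was made. The shares of genes at least 4-fold higher and lower were 16.9% and 9.84% for AGGAAGT (10.4% of all tested genes), and 36.7% and 33.8% for GAGGAA (30.6%), both contained in GAGGAAGT. For GGAAGTGA, which overlaps it, they were 4.76% and 1.98%, and the share of all tested genes was 5.28%. They were 3.74% and 3.96% for GGAA and GAAA with 2 bases between them (2.96% of all tested genes), and 9.51% and 9.77% for GAA and GAAA so spaced (7.62%). They were 4.76% and 6.86% for GAAA and GAAA so spaced (3.84%), and 26.2% and 33.4% for the Ikaros core TGGGAA (26.9%). Of the 14 matched genes among the 15 largest rises 4 held GAGGAAGT. The promoters of Cd53, Pld4, Pirb and Btbd3, shown because each holds the string once, follow from 5' to 3' on the strand of the gene, with the string in capitals (its reverse complement in Cd53).
Cd53, chr3:106790100-106790399, minus strand: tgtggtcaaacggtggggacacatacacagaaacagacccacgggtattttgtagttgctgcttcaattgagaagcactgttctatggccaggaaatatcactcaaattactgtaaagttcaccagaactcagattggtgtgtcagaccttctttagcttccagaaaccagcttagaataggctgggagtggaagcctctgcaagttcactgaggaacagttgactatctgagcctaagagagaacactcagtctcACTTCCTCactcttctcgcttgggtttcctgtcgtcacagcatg
Pld4, chr12:112760405-112760704, plus strand: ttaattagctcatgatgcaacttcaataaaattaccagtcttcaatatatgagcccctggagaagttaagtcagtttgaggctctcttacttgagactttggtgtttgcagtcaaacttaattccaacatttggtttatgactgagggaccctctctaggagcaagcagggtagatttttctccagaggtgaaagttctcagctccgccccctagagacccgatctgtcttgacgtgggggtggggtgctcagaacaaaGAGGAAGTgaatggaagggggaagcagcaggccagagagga
Pirb, chr7:3720333-3720632, minus strand: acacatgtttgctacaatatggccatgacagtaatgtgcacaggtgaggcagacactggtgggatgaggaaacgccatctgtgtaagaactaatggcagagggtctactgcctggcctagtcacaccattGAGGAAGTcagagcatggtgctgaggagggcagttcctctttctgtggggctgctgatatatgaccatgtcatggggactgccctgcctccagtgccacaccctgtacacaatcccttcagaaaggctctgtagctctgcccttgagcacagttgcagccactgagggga
Btbd3, chr2:138256334-138256633, plus strand: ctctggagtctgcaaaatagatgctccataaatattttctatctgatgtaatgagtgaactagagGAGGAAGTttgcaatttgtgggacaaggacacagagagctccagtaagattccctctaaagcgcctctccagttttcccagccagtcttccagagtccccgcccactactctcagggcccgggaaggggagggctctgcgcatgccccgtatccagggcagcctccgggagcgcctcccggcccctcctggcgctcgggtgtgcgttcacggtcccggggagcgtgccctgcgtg
In Cd53 and Pld4 the string lies just after the RefSeq start, and in Pirb and Btbd3 before it. A match describes these letters only and shows no binding.

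Set against the other transduced fibroblasts of the same day, the SII cells differed in both directions. Of 15905 genes tested in edgeR, 2734 were higher (17.2%) and 2500 lower (15.7%), of which 639 (4.02%) and 1192 (7.49%) were past 4-fold, with a median log2 fold change of -0.016 over all genes. With DESeq2 and its size factors, 567 higher and 1783 lower genes were past 4-fold. The 6 libraries on the other side hold different factor sets and differ in depth, from 2765 to 82866 median UMIs per cell, and in RNA-quality genes, which took 8.325% of the SI8 hCD2-line counts and at most 1.174% elsewhere. The count of calls also rests on both SII libraries: it was 1462 without the Clec9a-line library and 1283 without the hCD2-line library, against 5234 with both. A UMI of any delivered factor was seen in 19.85% of cells in the SI8 hCD2-line library, in every cell of PIB, and in shares between these in the other libraries. After seeing these shares, the comparison was repeated with only such cells on the other side. It gave 2403 higher and 2271 lower genes of 15444 tested, and 4438 of 5171 calls were kept with their sign.

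Qrfpr, Tmprss11d, Syt10 and Csn2 were among the named rises here too. Syt10 was at 56.7 and 98.8 CPM in SII and at 0 to 0.873 CPM with a median of 0 CPM in the other sets (log2 fold change 10.83 ± 0.93, adjusted p = 0.000382). Tmprss11d was at most 0.106 CPM in any other set (log2 fold change 9.87 ± 0.36, adjusted p = 2.48e-05), and Qrfpr at most 1.31 CPM, in the SI8 hCD2-line library (log2 fold change 9.84 ± 1.08, adjusted p = 0.0008). Csn2 was at 0 to 3.25 CPM in the other sets, with the highest value in PI8 (log2 fold change 6.36 ± 1.44, adjusted p = 0.0124). For each of these 4 genes both SII libraries were above every other day 3 library by more than 10-fold. Pira2 and Pirb were raised here too, Pirb at 263 and 263 CPM in SII against 1.96 to 15.3 CPM in the other sets (log2 fold change 5.09 ± 0.66, adjusted p = 0.00145), whereas Lilrb4a at 40.3 to 167 CPM and Clec12a at 39.1 to 227 CPM in the other sets did not pass the test (adjusted p = 0.807 and 0.881).

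The other named rises over these sets include genes best known from neurons, though of 11 tested genes of a neural list 2 were higher and 4 lower than in the other sets (median log2 fold change -1.89). Nrcam, a neuronal cell adhesion molecule, was at 123 and 152 CPM in SII, against 0.101 and 0.104 CPM in MEF and 1.07 to 4.61 CPM in the other sets (log2 fold change 5.41 ± 0.42, adjusted p = 0.000312). Foxp2, a transcription factor of brain and lung, was at 65.3 and 61.6 CPM in SII, against 17.8 and 18.4 CPM in MEF and 0.539 to 2.21 CPM in the other sets (log2 fold change 5.22 ± 0.39, adjusted p = 0.000279). Ptprr, a receptor tyrosine phosphatase expressed in neurons, was at 55.5 and 55 CPM in SII, against 0 to 1.92 CPM in the other sets (log2 fold change 6.31 ± 0.98, adjusted p = 0.00291). The axon guidance ligand Sema3d was at 43.8 and 69 CPM against 0.436 to 3.34 CPM (log2 fold change 5.47 ± 0.67, adjusted p = 0.00118). Selenbp1, a selenium-binding protein, was nearly equal in the lines at 87.1 and 87.9 CPM, against 0.417 to 1.75 CPM in the other sets (log2 fold change 6.35 ± 0.31, adjusted p = 9.18e-05). Tox3 at 70.7 and 52.9 CPM and Nebl at 71.6 and 61.4 CPM in SII, with at most 3.82 and 3.91 CPM in the other sets, were also among the named rises, together with the paired receptor family member Cd200r4 at 154 and 101 CPM against 0.0921 to 4.8 CPM.

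Among imprinted growth genes, 8 of 18 tested were higher and 1 lower than in the other sets (median log2 fold change 0.85). Dlk1, a Notch-like protein of fetal and progenitor cells, was at 91.2 CPM in the Clec9a line and 357 CPM in the hCD2 line, against 2.8 and 3.38 CPM in MEF and 5.72 to 18.8 CPM in the other sets (log2 fold change 4.43 ± 0.50, adjusted p = 0.000925). The noncoding Meg3, from the same imprinted cluster, was at 723 and 901 CPM in SII, against 456 and 449.6 CPM in MEF and 23.1 to 134 CPM in the other sets (log2 fold change 3.06 ± 0.47, adjusted p = 0.00275). Its neighbour Rian was at 74.1 and 94.2 CPM in SII, against 63.6 and 60.5 CPM in MEF and 10.4 to 15.5 CPM in the other sets (log2 fold change 2.42 ± 0.19, adjusted p = 0.000312). Cdkn1c, a cell cycle inhibitor, was at 53.6 and 143 CPM in SII against 1.01 to 9.17 CPM in the other sets (log2 fold change 4.04 ± 0.70, adjusted p = 0.00445). H19, another imprinted noncoding RNA, was the member that fell, to 0.515 and 0.262 CPM against 1328 and 1178 CPM in MEF and 0.973 to 19.2 CPM in the other sets (log2 fold change -4.34 ± 1.19, adjusted p = 0.025). Without the hCD2-line SII library 4 of the list were higher, and without the Clec9a-line library 7.

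Pan-leukocyte genes had 6 higher and 2 lower of 23 tested members against the other sets (median 0.59), and 3 higher and 0 lower with either SII library left out. Over all tested genes the shares were 17.2% higher and 15.7% lower, and no difference from them is read for this list as a whole. Cd53 was at 237 and 239 CPM in SII against 19.2 to 75.7 CPM in the other sets (edgeR log2 fold change 1.96 ± 0.40, adjusted p = 0.00773). Laptm5 was at 217 and 136 CPM against 4.39 to 22.6 CPM (edgeR log2 fold change 3.54 ± 0.49, adjusted p = 0.00181). Cd37, a B cell and DC tetraspanin, was at 33.5 and 30.6 CPM in SII against 0.485 to 1.75 CPM in the other sets (log2 fold change 5.24 ± 0.37, adjusted p = 0.000224). Vav1, a signalling exchange factor of blood cells, was at 22.1 and 16.7 CPM in SII and 0 to 0.873 CPM in the other sets (log2 fold change 6.54 ± 0.85, adjusted p = 0.00151). Cd52, a small surface glycoprotein, was lower, at 14 and 7.21 CPM in SII against 4.12 to 456 CPM in the other sets (log2 fold change -4.73 ± 1.52, adjusted p = 0.0434, a call lost with the reporter line as a term), with PIB at 4.12 CPM the exception below SII. Mpeg1, a pore-forming protein of phagocytes, was at 483 and 345 CPM in SII, against 9.69 and 9.09 CPM in MEF and 74.5 to 136 CPM in the other sets (log2 fold change 1.79 ± 0.22, adjusted p = 0.00125). Among transcription factors, 3 of 32 were lower and 9 higher than in the other sets. No difference from the 15.7% lower and 17.2% higher of all tested genes is read. The delivered Ikzf2 was among the 9 higher genes. They included Zeb2 at 320.1 and 281 CPM in SII against 32.9 to 93.3 CPM in the other sets (log2 fold change 2.09 ± 0.32, adjusted p = 0.00267) and Mef2c at 72.9 and 119.9 CPM against 2.2 to 16.3 CPM (log2 fold change 3.37 ± 0.61, adjusted p = 0.00519). The blood factor Lyl1 was at 11.3 and 11 CPM in SII against 0.276 to 2.18 CPM (log2 fold change 3.27 ± 0.51, adjusted p = 0.00284). Spi1, delivered in 4 of the 6 other libraries, was at 0.0336 and 0.0414 CPM in SII and at 1.55 and 3.06 CPM in the SI8 libraries, against 74.6 CPM in pDC.

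Most interferon-response genes and part of the chemokine and macrophage lists were lower than in the other sets. Interferon-response genes had 0 higher and 20 lower of 24 tested, all 20 past 4-fold (median log2 fold change -4.50), and 20 lower without the Clec9a-line and 13 without the hCD2-line SII library. Isg15 was at 93.9 and 36.8 CPM in SII against 1643 to 4510.1 CPM with a median of 2650.5 CPM in the other sets (log2 fold change -5.66 ± 0.66, adjusted p = 0.00103). Ifitm3 was at 21.6 and 15 CPM in SII against 4522 to 6605 CPM with a median of 5221 CPM in the other sets (log2 fold change -8.38 ± 0.34, adjusted p = 2.72e-05), and the groups did not overlap for either gene. Cytokine and chemokine genes had 0 higher and 16 lower of 28 tested (median -5.05), a count of 6 with either SII library left out. Ccl8, which draws monocytes, was at 9.13 CPM in the Clec9a line and 2.99 CPM in the hCD2 line, against 1105 to 69734 CPM with a median of 14688 CPM in the other sets (log2 fold change -12.01 ± 2.25, adjusted p = 0.00602). Ccl8 and Ccl12 are related genes of 1 family, and whether reads were shared between them was not examined. Cxcl16, a membrane chemokine, was at 22.2 and 25 CPM in SII, close to the 29.7 and 30.6 CPM of MEF, against 442 to 1052 CPM in the other sets (log2 fold change -5.25 ± 0.44, adjusted p = 0.000354). Il1b was at 5.46 and 2.47 CPM in SII against 11.5 to 903 CPM in the other sets (log2 fold change -6.84 ± 1.88, adjusted p = 0.025).

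Macrophage and monocyte genes had 1 higher and 10 lower of 23 tested against the other sets (median -3.60), and 4 lower with either SII library left out. Csf1r, the receptor of macrophage growth factor, was at 0.112 and 0.124 CPM in SII, against 7.41 to 59.4 CPM with a median of 20.4 CPM in the other sets (log2 fold change -8.05 ± 1.18, adjusted p = 0.00225). Ms4a6d, a membrane protein of macrophages, was at 0.302 and 0.358 CPM in SII against 38.3 to 366 CPM (log2 fold change -8.96 ± 1.24, adjusted p = 0.00181). Ctsk, a cathepsin that degrades collagen, was at 1.39 and 0.717 CPM against 323 to 4302 CPM (log2 fold change -10.59 ± 1.74, adjusted p = 0.00363). BC037156, a gene for which no role is given here, had 0 UMIs in SII and 1.58 to 778 CPM with a median of 158 CPM in the other sets, so that SII was at least 85.4-fold below the lowest of those libraries. Fibroblast genes had 0 higher and 9 lower of 24 tested (median -1.84), and 2 lower with either SII library left out. Sparc, a collagen-binding matrix protein, was at 199 and 254 CPM in SII, against 5205 and 5214 CPM in MEF and 874 to 2043 CPM in the other sets (log2 fold change -2.75 ± 0.38, adjusted p = 0.00189). Col1a1, at 39.6 and 36.7 CPM in SII against 49.8 to 300.5 CPM in the other sets, missed the threshold (adjusted p = 0.0521).

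Major histocompatibility complex (MHC) class II genes moved both ways against MEF and were mostly lower than in the other sets. Of 12 genes of class II presentation, 5 of 8 tested were higher and 3 lower than in MEF, and 0 of 10 tested higher and 8 lower than in the other sets, a count of 2 with either SII library left out. H2-DMa, H2-DMb1 and Ifi30, which load or prepare peptides, were lower in both comparisons (log2 fold changes of -1.84, -1.37 and -1.44 against MEF). H2-Aa, a class II chain, was at 1.1 and 0.938 CPM in SII against 1 UMI in MEF, 22.4 to 297 CPM with a median of 88.4 CPM in the other sets (log2 fold change -7.07 ± 1.16, adjusted p = 0.00354) and 3953 CPM in pDC. Ciita, the master activator of class II genes, was at 0.145 and 0.207 CPM in SII against 1.74 to 18.9 CPM in the other sets (log2 fold change -5.67 ± 0.99, adjusted p = 0.00455) and 101 CPM in pDC. Cd74, the invariant chain, was at 665 and 365 CPM in SII, against 16.9 and 17.8 CPM in MEF (log2 fold change 4.88 ± 0.37, adjusted p = 0.000856) and 12204 CPM in pDC. Against 514 to 2646 CPM in the other sets it missed the threshold (adjusted p = 0.0622).

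Against pDC, which has 1 library and allows no test, the SII cells differed in genes of both cell types. Of 9040 genes at 10 CPM or more in either group, 1115 (12.3%) were at least 4-fold higher in both SII libraries and 1008 (11.2%) at least 4-fold lower. No count over a gene list is given here, since most list members reach this level only in the group where they are high. Siglech, the sialic acid-binding lectin used to sort pDCs, had 0 UMIs in either SII library against 3050.3 CPM in pDC, at least 164600-fold lower with 3 counts over both SII libraries together. Klk1, a kallikrein that marks mouse pDCs, also had 0 UMIs against 889 CPM in pDC, and Ly6d was at 0 and 0.0138 CPM in SII against 3777 CPM. Immunoglobulin light chain transcripts Iglc3 and Igkc, which mouse pDCs carry as lineage kin of B cells, had 0 UMIs in SII against 1092 and 657 CPM in pDC. Bcl11a, a factor needed for pDCs, was at 3.05 and 2.21 CPM in SII against 693 CPM in pDC. It was also lower than in MEF (edgeR log2 fold change -3.10 ± 0.19, adjusted p = 0.000544).

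In the other direction, genes of adherent and mesenchymal cells were higher in SII than in pDC. Thbs1, the matrix protein thrombospondin 1, was at 1211 and 1482 CPM in SII with 0 UMIs in pDC, at least 21460-fold higher. Cald1, an actin-binding protein of contractile cells, was at 1158 and 1393 CPM, and Meg3 at 723 and 901 CPM in SII, both with 0 UMIs in pDC. Col1a2 was at 747 and 528 CPM in SII against 0.0376 CPM in pDC, and the tetraspanin Cd81 at 2194 and 1695 CPM against 0.207 CPM in pDC. Leukocyte genes named above for their rise over MEF lay on both sides of pDC. Pld4, Ptprc and Clec12a were below pDC in both lines, with pDC holding 503 CPM of Clec12a. Lilrb4a, Gpr65, Aif1 and Pirb were above pDC in both lines, with 3.48 CPM, 17.4 CPM, 8.26 CPM and 118 CPM in pDC, as was Lilr4b at 83 and 85 CPM in SII against 0.245 CPM in pDC.

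Between the lines most genes compared were within 2-fold. The counts of the 2 SII libraries still differed by 89.73 in chi-square per degree of freedom, against 2.46 for the MEF pair. Of 7757 genes at 10 CPM or more in either SII library, 96 (1.24%) were at least 2-fold higher and 132 (1.70%) at least 2-fold lower in the hCD2 line than in the Clec9a line. With 1 library per line there is no test, and intervals cover counting error only. The reporter locus differed between the lines: Gt(ROSA)26Sor, the Rosa26 transcript, was at 13.3 CPM in the hCD2 line and 207 CPM in the Clec9a line, a ratio of 0.0643 (95% interval 0.0602 to 0.0686). In SI8 it was at 1.75 CPM in the hCD2 line and 118 CPM in the Clec9a line. Y-linked transcripts also separated them, with Ddx3y at 0 UMIs in the hCD2 line and 47.8 CPM in the Clec9a line, so the lines were not matched for sex and differ in alleles and sort besides. Ddx3y was seen in 42.05% of Clec9a-line cells. Xist, a transcript of female cells, was seen in 57.23% of Clec9a-line and 97.57% of hCD2-line cells. Transcripts of both sexes were thus present in the Clec9a-line library. Whether differences between its cells follow sex was not tested.

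The genes furthest apart in the lines were of several kinds, and of 15 fibroblast and matrix genes at 10 CPM or more 0 were higher and 1 lower in the hCD2 line. Pmp22, a myelin membrane protein also made by fibroblasts, was at 132 CPM in the hCD2 line and 23.3 CPM in the Clec9a line, a ratio of 5.66 (95% interval 5.39 to 5.93). Fbln2, a basement membrane fibulin, was at 165 and 40.3 CPM in the hCD2 and Clec9a lines, and Dlk1 at 357 and 91.2 CPM, a ratio of 3.91 (95% interval 3.81 to 4.01). On the lower side, Fabp4, a fatty acid binder of fat cells, was at 4.65 CPM in the hCD2 line and 77.5 CPM in the Clec9a line, and the integrin Itgb8 at 20.4 and 152 CPM. Cd72, a lectin-like receptor of B cells and myeloid cells, was at 50.3 CPM in the hCD2 line and 212 CPM in the Clec9a line, a ratio of 0.237 (95% interval 0.228 to 0.245). Ptprc had a ratio of 0.31 (95% interval 0.302 to 0.319). Of 12 interferon genes at 10 CPM or more 7 were lower and 0 higher in the hCD2 line, and of 13 pan-leukocyte genes 3 were lower and 0 higher.

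Within each library, the summed fibroblast genes of every SII cell compared lay below those of most MEF cells. To compare cells at 1 depth, each cell was thinned to 10000 UMIs, which left out 10 and 5 SII cells, 62 and 10 MEF cells and 695 pDC cells. The 24 fibroblast genes then had medians of 50 UMIs in the Clec9a line and 53 UMIs in the hCD2 line, against 372 and 364 UMIs in MEF and 1 UMI in pDC. The highest SII cells held 161 and 204 UMIs, and 0 of 3385 reached 245 UMIs, the 5th percentile of the MEF library with the lower one. The 24 pan-leukocyte genes had medians of 21 and 16 UMIs in SII, against 4 and 4 in MEF and 166 in pDC. Here too the highest SII cells, at 65 and 47 UMIs, were below the pDC 5th percentile of 132 UMIs, so that 0 of 3385 cells fell in the range of most pDCs.

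**Figure D3:**
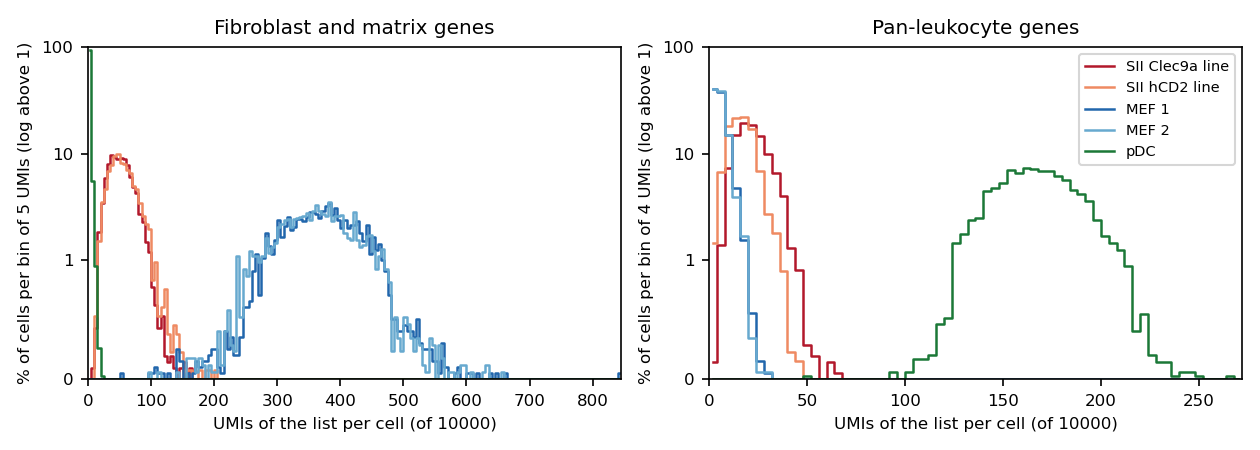
Cells by summed UMIs of the fibroblast list (left) and the pan-leukocyte list (right) after thinning to 10000 UMIs per cell, with 1 line per library of SII day 3, MEF and pDC; the y axis is the percent of cells per bin of 5 or 4 UMIs, on a log scale above 1. SII cells form a single hump at fibroblast medians of 50 and 53 UMIs, apart from MEF at 372 and 364, and pan-leukocyte medians of 21 and 16 UMIs, apart from pDC at 166.

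The markers differed in how evenly the cells carried them. At 10000 UMIs, Pld4 was seen in 93.29% of Clec9a-line and 79.07% of hCD2-line cells, against 0 MEF cells. Btbd3 was seen in 88.94% and 84.40% of SII cells, against 23.35% and 23.28% of MEF cells. Ptprc was seen in 74.22% (exact Clopper-Pearson 95% interval 72.27% to 76.09%) of Clec9a-line cells and 38.51% (35.87% to 41.20%) of hCD2-line cells, against 99.74% of pDCs. It was seen in 0 of 1983 and 0 of 1718 MEF cells, which allows shares of up to 0.1513% and 0.1746% (3 cells of the total, a limit on cells with a UMI at this depth and not on cells expressing the gene). Unthinned, the Ptprc shares were 90.58% and 60.42%. Cd53 was nearly equal in the lines, at 75.52% and 73.82%. Igfbp2 was seen in 70.26% and 73.21% of SII cells and 35.75% and 34.75% of MEF cells, but reached 238 and 207 UMIs in single SII cells, so its level was carried very unevenly. Siglech was seen in 0 SII cells, which by the same rule allows shares of cells with a UMI of up to 0.1449% and 0.2283%. Mki67, a marker of dividing cells, was seen in 0.338% and 0.3044% of SII cells, against 0.706% and 0.7567% of MEF cells. Every SII and MEF cell with a Mki67 UMI held 1, so no difference is read from these shares.

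Some genes were seen in few SII cells, at high level in single cells. Over cells thinned to 10000 UMIs, 527 genes had a variance of at least 2 times the mean in both lines. After abundant transcripts such as Malat1 and Fth1, the 20 most variable held Csn2 (variance-to-mean ratio at least 48.9 in either line), seen in 5.215% and 5.784% of cells with up to 133 and 143 UMIs in one cell, and in 0 MEF cells. Nts, the precursor of neurotensin, was seen in 1.255% and 0.609% of cells with a ratio of at least 50.4, and S100g, a calcium-binding protein, in 9.271% and 7.002% (18.7). Cxcl10, an interferon-induced chemokine, was seen in 3.718% and 3.120% of SII cells (37.6), against 48.06% and 47.38% of MEF cells, and was thus a gene that fell. Wfdc17, a secreted protein of activated macrophages, was seen in 31.87% and 32.19% (29.8), and Dlk1 in 23.23% of Clec9a-line and 51.29% of hCD2-line cells (16.3). The shares of cells in which these genes were seen were alike in the lines except for Dlk1 and Nts.

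Cells were also split at a Ptprc UMI after thinning, and the unthinned shares above mean that many cells on the side without one had a Ptprc UMI before it. In this split, 13 of 5537 genes were at least 1.5-fold higher (0.235%) and 27 at least 1.5-fold lower (0.488%) in both lines, as pooled CPM without a test. Csn2 was at 83.9 CPM in cells with and 22.5 CPM in cells without a Ptprc UMI in the Clec9a line, and at 121 and 37.5 CPM in the hCD2 line. Tmprss11d was at 106 CPM with and 40.8 CPM without in the Clec9a line, and at 175 and 66.3 CPM in the hCD2 line. Itgb2, the leukocyte integrin beta chain, was at 57.3 CPM with and 30.9 CPM without in the Clec9a line, and at 23.3 and 7.18 CPM in the hCD2 line. The lower genes were of several kinds, among them Lcn2, Plac8, Wfdc17 and Egr1, and included extracellular proteins of fibroblasts. Aebp1 was at 18.3 CPM with and 52.4 CPM without in the Clec9a line, and at 33.4 and 74.3 CPM in the hCD2 line. The BMP antagonist Grem1 was at 21.1 CPM with and 47.2 CPM without in the Clec9a line, and at 8.70 and 42.8 CPM in the hCD2 line. Postn, a matrix protein, was at 29 CPM with and 45.9 CPM without in the Clec9a line, and at 20 and 41.3 CPM in the hCD2 line. Not all matrix genes went this way. The collagen Col1a2 was at 785 CPM with and 674 CPM without in the Clec9a line, and at 588 and 498 CPM in the hCD2 line. Col1a1, Col3a1 and Fn1 were lower with Ptprc in both lines. A split at an Ikzf2 UMI gave 14 higher (0.254%) and 9 lower (0.163%) of 5516 genes, again with Csn2 and Tmprss11d higher and Grem1 and Aebp1 lower, but every cell on the side without a UMI had 1 or more before thinning. These splits, and the one by Hoxd11 below, were chosen after seeing the values.

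**Figure D4:**
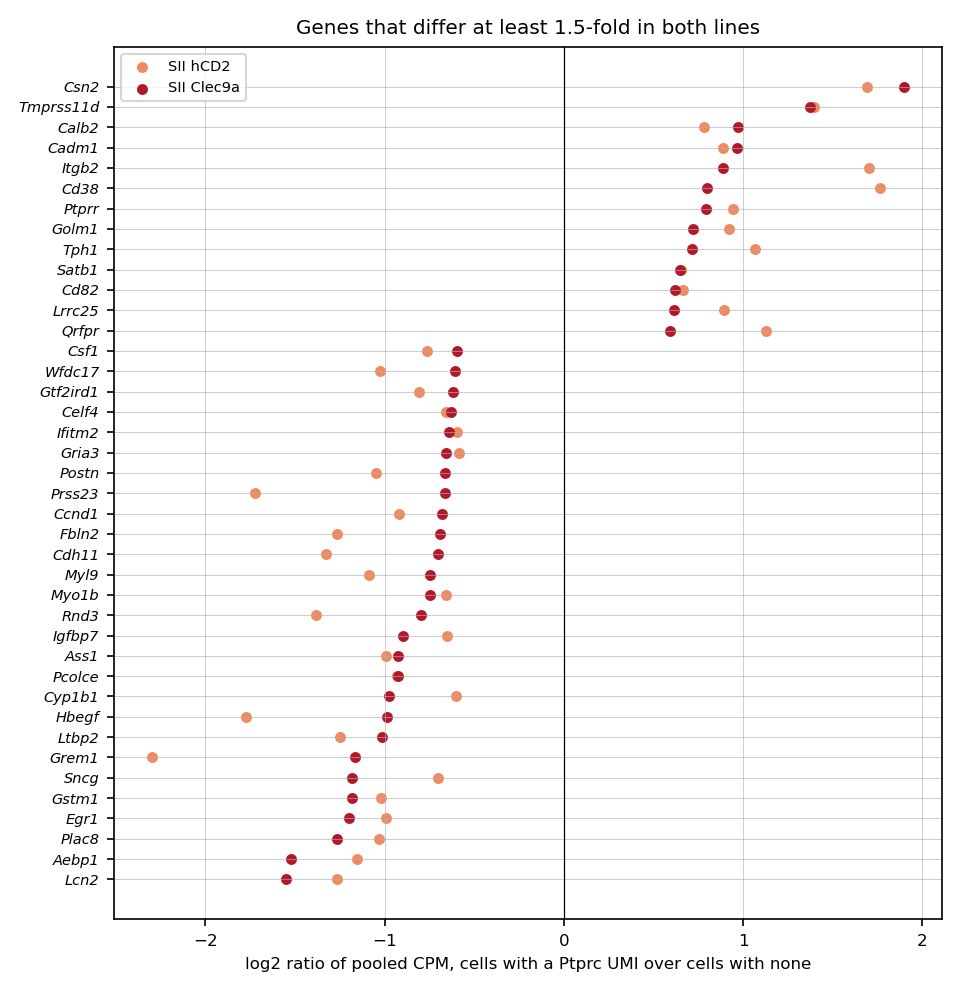
Log2 ratio of pooled CPM in cells with over cells without a Ptprc UMI, at 10000 UMIs per cell, for the genes at least 1.5-fold apart in both lines (13 higher and 27 lower in cells with Ptprc), with 1 point per line. Csn2 and Tmprss11d lie on the higher side, and Aebp1, Grem1 and Postn on the lower side, in both lines.

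Positional genes split the cells of both lines. Cells with a UMI of Hoxd11, a gene of distal limb and posterior position, and none of the trunk genes Hoxb4, Hoxc6, Hoxc8 and Hoxc9 made up 5.708% of the hCD2 line and 34.33% of the Clec9a line, and 41.96% and 41.85% of MEF. Cells with a trunk gene and no Hoxd11 made up 78.54% of the hCD2 line and 43.02% of the Clec9a line, and 0.5547% and 0.291% of MEF. Both were seen in 4.033% of hCD2-line and 4.104% of Clec9a-line cells, where the product of the separate shares is 8.044% and 18.11%. Of cells with a Hoxd11 UMI, 53 of 128 in the hCD2 line and 85 of 796 in the Clec9a line also had a trunk gene. Cells with a Hoxd11 UMI had Hoxd10 at 53.8 CPM, against 5.57 CPM in cells without in the Clec9a line, and at 36.7 against 2.28 CPM in the hCD2 line. Hoxc9 was at 12.9 CPM with Hoxd11 and 132 CPM without in the Clec9a line, and at 75.8 and 147 CPM in the hCD2 line. Twist2, a mesenchymal factor, was at 6.91 CPM with and 35.1 CPM without in the Clec9a line, and at 7.03 and 36.9 CPM in the hCD2 line.

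Levels of the markers differed between these positional classes, Igfbp2 in opposite directions in the lines. Igfbp2 was at 1297 CPM in cells with and 1918 CPM in cells without Hoxd11 in the Clec9a line, and at 2947 and 1313 CPM in the hCD2 line. Btbd3 was at 844 CPM in cells with Hoxd11 and 539 CPM in cells without in the Clec9a line, and at 961 and 559 CPM in the hCD2 line. Dlk1 was at 33.5 CPM with and 138 CPM without in the Clec9a line, and at 166 and 360 CPM in the hCD2 line. Ptprc in cells of the Hoxd11 class was at 221 CPM in the hCD2 line and 417 CPM in the Clec9a line, and in cells of the trunk class at 92.3 CPM in the hCD2 line and 324 CPM in the Clec9a line. In both classes the hCD2 line was the lower, with 1 library per line, and the cause of this difference was not tested. Over the 5559 genes compared, 31 were higher (0.558%) and 30 lower (0.540%) with Hoxd11 in both lines.

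**Figure D5:**
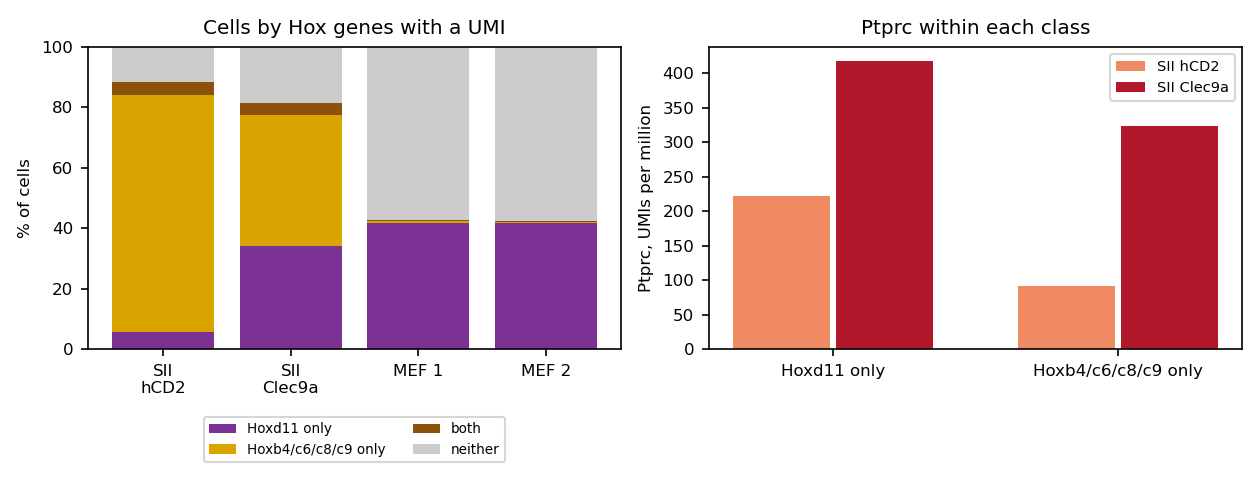
Left, percent of cells at 10000 UMIs with a UMI of Hoxd11 only, of the trunk genes Hoxb4, Hoxc6, Hoxc8 or Hoxc9 only, of both or of neither, as stacked bars for the SII hCD2 line, the SII Clec9a line and the 2 MEF libraries; right, Ptprc CPM in the Hoxd11-only and trunk-only cells of the hCD2 line and the Clec9a line. Trunk-only cells are 78.54% of the hCD2 line and 43.02% of the Clec9a line, and Ptprc is lower in the hCD2 line in both classes (221 against 417 CPM, and 92.3 against 324 CPM).

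Principal components of the Clec9a-line cells were found on 1202 genes and read in the hCD2 line. The first 5 took 4.18%, 3.68%, 2.33%, 1.95% and 1.41% of the variance in the Clec9a line and 3.24%, 3.48%, 2.36%, 1.45% and 1.79% in the hCD2 line on the same axes, so no single axis dominated. Of the 50 genes at the ends of each axis, 50, 50, 50, 49 and 50 correlated with it in the same sign in the hCD2 line. Each of these genes is part of the score it was correlated with, so the signs agree in part by construction. No sharing between the lines is read from these counts. The first axis set ribosomal protein genes against Itgb8, Plek and Inhba. The second set ribosomal genes and Fth1 against Qrfpr, Igfbp2 and Pirb, and correlated with log UMIs per cell at 0.38 and 0.377 across cells, which share their library. The fourth set Hoxc6, Hoxc9, En1, Cd53 and Lilr4b against Hoxd11, Cst3 and Cd74. The fifth set the matrix and adhesion genes Fn1, Aebp1, Fbln2 and Cdh2 against Pld4, Gpr65, Fgd2 and Ldha.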

How the data were processed

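The deposited values are UMI counts, whole numbers for 24455 gene symbols in each of 25991 cells. Per the submitters' processing notes, the authors used Cell Ranger 6.0.1 and Seurat with mm10; no rule for keeping cells is given in the sources used here. Libraries were prepared with 10x Chromium 3' chemistry from polyadenylated RNA, per the labels' protocols. The members, gene lists and tests were chosen with earlier results of these data known.

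Cells with under 500 UMIs, under 200 genes or over 20% mitochondrial counts would have been removed, which were 0 cells. Scrublet through scanpy 1.11.5 called 15 and 10 SII doublets, which were kept in the main results. The SII libraries shared 1 cell barcode. Their counts differed by 89.73 in chi-square per degree of freedom, against 2.46 for the MEF pair, and all were kept as separate libraries. Counts were summed per library and tested with edgeR 4.0.16 (TMM factors, filterByExpr, quasi-likelihood F test) in R 4.3.3, with Benjamini-Hochberg adjustment over all genes tested. DESeq2 1.42.0, RLE factors, other filters, thinning, the reporter line as a term and leaving out each library were the alternatives. A fold against a group at 0 is a floor, the nearest library of the other group over 3 counts in the total of the group at 0. Such floors and all intervals describe counting error alone.

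Named genes were the 15 highest and 15 lowest log2 fold changes among called genes with at least 50 CPM in the higher group and no overlap of libraries, the 10 highest and 10 lowest ratios for pDC and for the lines, the 20 most variable genes over cells, and members of the gene lists; predicted gene models were passed over. The 4-fold rule, the fit with the reporter line, the restriction of other sets to cells with a delivered factor, the splits of cells and the promoter strings were chosen after seeing values.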

Additional observations from a re-analysis of the deposited data

Results flagged for a closer look

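The 4 genes here lay above both MEF libraries in one SII line and below both in the other, each by at least 1.25-fold, at 50 CPM or more in the higher line. With 1 library per line the difference between the lines was not tested, and the limit of 1.25-fold was set after a limit of 2-fold had given 0 genes. Irf7, an interferon-response factor, was at 115 CPM in the hCD2 line and 321 CPM in the Clec9a line, against 202 and 212 CPM in MEF (log2 ratio of hCD2 over Clec9a line -1.48). H2-Q7, a nonclassical MHC class I gene with close copies, was at 14.6 CPM in the hCD2 line and 58.1 CPM in the Clec9a line, against 35 and 32.4 CPM in MEF (log2 ratio -1.99). Pmp22 was at 132 CPM in the hCD2 line and 23.3 CPM in the Clec9a line, against 94.8 and 95.7 CPM in MEF (log2 ratio 2.50). Hoxd11 was at 19 CPM in the hCD2 line and 103 CPM in the Clec9a line, against 57.9 CPM in each MEF library (log2 ratio -2.43).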

How the results depend on the processing

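Genes called against MEF numbered 10655, and between 6120 and 12905 when single libraries were left out; past 4-fold they numbered 3477, and between 2831 and 3693. Genes called against the other day 3 sets numbered 5234, 3023 after thinning to the smallest library, and between 1283 and 5719 when single libraries were left out; past 4-fold these were 1831, 856, and between 637 and 1971. The lowest counts came without an SII library, where the lone one is assumed to vary like the other group. Counts against pDC were 2123 at 4-fold and 3856 at 2-fold, between the lines 228 at 2-fold and 47 at 4-fold, and variable genes 527 at 10000 and 241 at 5000 UMIs per cell. All 30 genes named against MEF were called under every alternative run, and 21 to 30 of the 30 named against the other sets. With the reporter line as a replicate block, chosen after seeing the data, 4545 genes were called against the other sets and 1507 past 4-fold; 4165 of the 5234 calls were kept with their sign and 28 of the 30 named genes stayed called, without BC037156 and Dnase1l3. Against MEF no such fit could be made, since the wildtype libraries share no line with SII. Depth limits genes at 0 to 0.0185 CPM in SII, 0.0342 CPM in MEF, 0.0115 CPM in the other sets and 0.0565 CPM in pDC.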

Other observations

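Some gene groups moved little or in both directions. Of all tested genes, 35.3% were higher and 34.1% lower than in MEF, and 17.2% higher and 15.7% lower than in the other day 3 sets. Of 20 S phase genes 3 were higher and 9 lower in SII than in MEF (median log2 fold change -0.46), and of 20 G2 and M phase genes 5 were higher and 4 lower (median -0.04). Against the other day 3 sets 0 of the G2 and M phase genes were higher and 6 lower (median -1.97), a count of 1 with either SII library left out and 10 with the reporter line as a term; Cdk1, the kinase of mitotic entry, was at 6.37 and 7.90 CPM in SII, against 16.9 to 37.1 CPM in the other sets. MHC class I genes had 1 higher and 2 lower of 16 against MEF (median -0.11) and 0 higher and 8 lower against the other sets (median -1.36), with 5 lower without the Clec9a-line and 2 without the hCD2-line SII library.

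Type 1 conventional DC genes rose in part over MEF, and type 2 genes moved both ways. Of 10 tested genes of type 1 conventional DCs 6 were higher and 1 lower than in MEF (median 1.87). Of 9 tested genes in the type 2 list of 15, 6 were higher and 3 lower (median 4.79). The genes not tested are left out of these counts and medians. The type 1 list summed to 1008.2 and 943.07 CPM in SII, against 123.14 and 124.21 CPM in MEF. The type 2 list summed to 425.3 CPM in the Clec9a line and 250.7 CPM in the hCD2 line. MEF held 288.74 and 290.26 CPM of the type 2 list, so the lines lay on both sides of MEF. Against the other day 3 sets these lists had 0 higher and 3 lower of 13, and 0 higher and 2 lower of 11. Over all tested genes the shares were 35.3% higher and 34.1% lower against MEF, and 17.2% and 15.7% against the other sets. With so few members, no difference from the shares against the other sets is read.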
